A study of Mus musculus with 2 samples.

Results

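Tendon is a dense cord of aligned collagen I fibres made by tenocytes, which express the transcription factor scleraxis (Scx). It is wrapped and partitioned by a looser connective tissue, the peritenon, which carries vessels and nerves and holds fibroblasts rich in collagen III. The cells described here are fibroblasts of the control library with little Scx and little Pi16. Pi16 (peptidase inhibitor 16) marks a fibroblast type found around vessels and in fascia in many organs. The cells were chosen from their own counts, and 462 of the 2364 cell barcodes of the control library qualified (19.5%, exact binomial 95% interval 18.0 to 21.2), of 4956 barcodes in both libraries.

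Single-cell RNA was sequenced from enzymatically released limb tendon cells of mouse pups at postnatal day 7 (P7), in 1 control library and 1 library of Tgfbr2;ScxCre mutants, each pooled from 2 pups. The mutants carry a floxed and a null allele of Tgfbr2, the type II receptor of TGF-beta, and a Cre recombinase driven by Scx, so the receptor is targeted in Scx-expressing cells and their progeny. The control is called wild-type in most of its labels and heterozygous in another, and all mice of the study carried the tendon reporter ScxGFP and the Cre reporter RosaT. By the study's notes, counts given for Scx include transcripts of ScxGFP, so every Scx level here, and each limit set on it, is for both together. Unique molecular identifiers (UMIs), which count each captured mRNA molecule once, were summed over the cells of a population and scaled to its total as CPM (counts per 1e+06 UMIs). A level in CPM can be compared between populations, and between genes because each transcript is counted at its 3′ end. There is 1 library per genotype, so cells are not replicates, no test was possible, and intervals (95%, exact) cover counting error only.

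A cell was kept when it had at least 5 UMIs over Col3a1, Dpt, Ly6a, Cd34 and Lum, under 30 Scx UMIs per 10000 and fewer than 2 Pi16 UMIs. It also had to hold fewer than 5 UMIs of immune genes, 3 of mural genes, 2 of endothelial genes and 4 of cell cycle genes, with under 10% of its UMIs on haemoglobin genes. In this order the limits left 1019, 828, 594, 592, 495, 490, 463 and 462 cells. The Pi16 limit alone removed 217 cells that met all others, and the Scx limit alone removed 162. The kept cells held 1642697 UMIs, from 963 to 13806 per cell with a median of 3343.5, and a median of 1470 genes. A doublet caller marked 4 of them. Barcodes found in both libraries numbered 2, of which 1 was among the kept cells.

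The genes of the rule describe the cells and are not results. Col3a1 (collagen III) stood at 7394 CPM and was seen in 100% of the cells. Lum (lumican, a small proteoglycan of collagen fibres) stood at 1371 CPM, Ly6a (Sca-1) at 847 CPM, Cd34 at 642 CPM and Dpt (dermatopontin) at 388 CPM. In immune cells of the same library (189 barcodes with at least 5 UMIs of the immune genes), which should lack these genes, the levels were 137, 9.78, 17.6, 29.3 and 3.91 CPM. Cells held from 5 to 181 UMIs over the 5 markers, with a median of 29. Scx, which the rule limits here but not in the immune cells, was at 467 CPM against 1537 CPM in the immune cells, and 147 cells had none.

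The cells next to a limit were as follows. The 14 cells with 5 or 6 marker UMIs had 5049 CPM of Tnmd (tenomodulin, a membrane protein of mature tenocytes), and the 14 cells just outside, with 3 or 4 marker UMIs, had 4695 CPM. The 22 cells with 20 to under 30 Scx UMIs per 10000 had 9271 CPM of Tnmd, against 8639 CPM in the 7 cells just above that limit. At the Pi16 limit, the 79 cells with 1 Pi16 UMI had 3127 CPM of Mfap5 (a microfibril protein) and the 35 cells with 2 had 3607 CPM. Other genes stood further apart. Mfap5 was at 603 CPM inside and 46.7 CPM outside the Scx limit and at 456 and 105 CPM at the marker limit, Tnmd was at 464 and 163 CPM at the Pi16 limit, and Col3a1 was at 7186 and 2195 CPM at the Scx limit.

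Markers of other cell types were summed in the same cells and set beside the immune cells. All 6 epithelial markers (Krt5, Krt14, Krt15, Epcam, Krt18, Krt8) were at 0 UMIs. Of the 8 immune markers 7 had UMIs, together 23.1 CPM against 22636 CPM in the immune cells, with Lyz2 the most abundant at 6.70 CPM and Cd52 at 0. Of the 8 Schwann cell markers 3 had UMIs, 77.3 CPM in all against 17.6 CPM in immune cells, of which S100b made 74.3 CPM, while Sox10, Cdh19, Gpr17 and Erbb3 were among those at 0. Mural markers summed to 433 CPM with all 8 present, against 117 CPM in immune cells and 350 CPM in Scx-high cells. Acta2 (smooth muscle actin) led at 205 CPM. Bone markers summed to 12.8 CPM with 5 of 7 present (Spp1 led at 4.87 CPM, and Ibsp and Dmp1 were at 0), and cartilage markers to 131 CPM with 7 of 9 present, against 78.2 and 68.4 CPM in immune cells (for cartilage, Col2a1 led at 45.7 CPM, and Matn1 and Matn3 were at 0). Endothelial markers summed to 70.0 CPM (39.1 CPM in immune cells) with 6 of 7 present, led by Ecscr at 29.8 CPM and with Emcn at 0. Adipocyte markers summed to 138 CPM (303 CPM in immune cells) with 4 of 7 present, led by Lpl at 119 CPM and with Plin1, Cidec and Cd36 at 0. Perineurial markers summed to 30.4 CPM (11.7 CPM in immune cells) with all 5 present, and skeletal muscle markers to 27.4 CPM (52.8 CPM) with all 8 present, led by Slc2a1 and Tnnt1. The tenocyte markers Tnmd, Fmod, Mkx, Thbs4, Kera, Col11a1 and Cilp2 had the highest sum of these lists, 3215 CPM against 1062 CPM in the immune cells. The part of these cell types in the results was not tested.

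The cells were therefore divided by K-means into 3 subgroups, with the genes of the rule left out. Subgroup 1 held 211 cells (45.7%, 41.1 to 50.3), subgroup 2 held 128 (27.7%, 23.7 to 32.0) and subgroup 3 held 123 (26.6%, 22.6 to 30.9). Median UMIs per cell were 3030, 3211 and 4536, and doublet calls fell on 1, 2 and 1 cells. Since the genes named below for each subgroup also formed it, their levels are a description. The rule required at least 5 UMIs over its fibroblast markers in every cell, and all of these markers were present in each subgroup. Their sum differed, at 12883, 11781 and 7359 CPM.

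**Figure D1:**
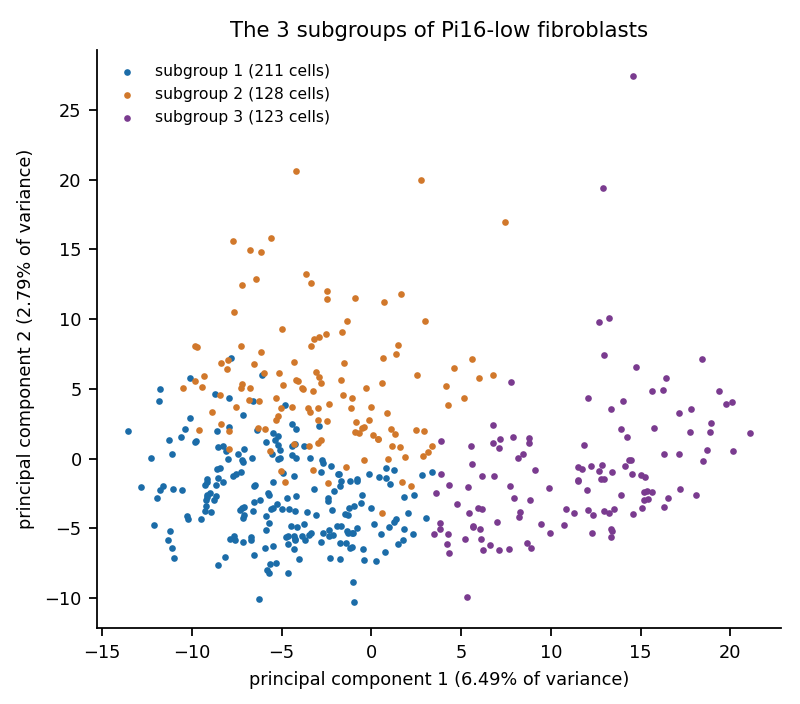
Each point is 1 of the 462 Pi16-low fibroblasts of the control library, placed by the first and second principal components (axis labels give their share of the variance, 6.49% and 2.79%) and coloured by subgroup. Subgroup 3 begins at 3.47 on the first component, where subgroup 1 ends (3.39), while subgroup 2 reaches 7.43 and so overlaps it on that axis.

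The promoters of 3 leading genes are shown, 1 for each subgroup, because the subgroups are described by such genes: for each, the most abundant leading gene with an E-box (CANNTG, the letters bound by basic helix-loop-helix factors, the family of Scx) in the 120 bases before its start. E-boxes, and TATAAA in Myoc, are in capitals. The sequences are RefSeq promoters on GRCm38.p6, plus strand, 5′ to 3′, and end at the base before the start. They lie at chr1:162639030-162639149 (Myoc), chr16:78930828-78930947 (Chodl) and chr5:88455871-88455990 (Ambn).
Myoc: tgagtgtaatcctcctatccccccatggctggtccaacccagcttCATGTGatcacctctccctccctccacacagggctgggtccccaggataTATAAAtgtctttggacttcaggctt
Chodl: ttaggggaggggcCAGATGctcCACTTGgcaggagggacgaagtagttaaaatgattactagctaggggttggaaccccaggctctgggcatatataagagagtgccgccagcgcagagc
Ambn: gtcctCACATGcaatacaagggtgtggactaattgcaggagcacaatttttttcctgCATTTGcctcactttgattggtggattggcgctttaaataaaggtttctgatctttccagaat
The E-boxes begin 75 bases before the start in Myoc, 107 and 98 bases in Chodl and 115 and 63 bases in Ambn, and the TATAAA of Myoc begins 26 bases before it. Both motifs were searched on both strands (CANNTG reads the same on each) over 250 bases, and they cannot overlap in these 3 promoters as printed. Of the leading genes found in the promoter table, an E-box was in 3 of 4 for subgroup 1, 5 of 8 for subgroup 2 and 3 of 6 for subgroup 3, against 66.0% of all promoters. TATAAA was in 3504 of all 27025 promoters. Such matches describe the letters and not binding.

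The 8 leading genes of subgroup 1 were Myoc (myocilin), Smoc2 (a calcium-binding matrix protein), Fst (follistatin, which binds activins), Igfbp3 (a carrier of insulin-like growth factors), Clu (clusterin, a chaperone), Dlk1 (delta-like 1, an imprinted transmembrane protein of growing mesenchyme), Penk (proenkephalin) and Agtr2 (a receptor of angiotensin II). Dlk1 (ENSMUSG00000040856, chromosome 12 from 109452823 to 109463336 of GRCm38) was the most abundant, at 2969 CPM, against 869 CPM in subgroup 2 and 166 CPM in subgroup 3. It had a UMI in 72.0% of the cells of subgroup 1 and in 1.59% of immune cells, whose median depth was 2477 UMIs. Igfbp3 was at 1364 CPM in subgroup 1, at 277 CPM in subgroup 2 and at 71.8 CPM in subgroup 3, and Myoc at 324, 44.2 and 10.3 CPM. All 3 genes thus ran in the same order, with subgroup 3 lowest.

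Of the 8 imprinted growth genes compared in subgroup 1, 5, with Dlk1 among them, were at least 2-fold higher than in the other members and 0 lower, and the list's median log2 ratio was 1.41. Over all 1347 genes compared, 3.49% were at least 2-fold higher and 8.09% lower, with a median of -0.17. H19, an imprinted non-coding RNA, stood at 3242 CPM, and Cdkn1c, a cell cycle inhibitor, at 2128 CPM. Sheath and surface genes were lower, with 4 of 5 tendon sheath and synovial lining genes and 3 of 5 stromal surface genes at least 2-fold below the other members. Cd55 is in both lists, so these counts overlap.

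Subgroup 2 carried tenocyte genes, unevenly among its cells. Its leading genes were Wif1 (a secreted Wnt inhibitor), Tnmd, Fmod (fibromodulin, a proteoglycan that regulates collagen fibril growth), Chodl (chondrolectin), Cilp2, Col11a1 (a minor fibrillar collagen), C1qtnf3 and Fibin. Of the 9 tenocyte genes compared, 9 were at least 2-fold higher than in the other members, with a median log2 ratio of 2.98, while 5.04% of all 1269 genes were and 7.64% were at least 2-fold lower. Tnmd (ENSMUSG00000031250, chromosome X from 133850980 to 133865577) reached 5452 CPM, against 438 CPM in subgroup 1, 316 CPM in subgroup 3 and 465 CPM in immune cells. Of the 3 subgroups only subgroup 2 stood above the level of the immune cells. It stood below the 7555 CPM of the Scx-high cells (1100 barcodes with at least 30 Scx UMIs per 10000).

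The same held for Fmod, at 1405 CPM in subgroup 2, 129 CPM in subgroup 1, 111 CPM in subgroup 3 and 327 CPM in immune cells. Col1a1, the main chain of collagen I, was at 26777 CPM in subgroup 2, 10106 CPM in subgroup 1 and 4605 CPM in subgroup 3, while immune cells had 4789 CPM. Scx, limited by the rule, was at 877 CPM in subgroup 2, and the 22 members nearest the Scx limit had 2509 CPM of Scx beside their 9271 CPM of Tnmd. With K-means at k = 4, 76 cells of subgroup 2 fell into a group led by Cpz, Mfap4 and Sfrp2. Another 50 fell into a group led by Cox4i2, Comp and Thbs4, with Col2a1, Tnmd and Prg4 also among its leading genes. These groups also held 44 and 5 cells of subgroup 1, and the second held 16 of subgroup 3. In subgroup 2, matricellular genes, which code for matrix proteins that act on cells, were at least 2-fold higher in 8 of 10, beside 5.04% of all genes. Of these, Postn (periostin) was at 2250 CPM and Thbs4 (thrombospondin 4) at 1253 CPM. All 5 stromal surface genes compared were at least 2-fold lower, beside 7.64% of all genes.

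In the 128 cells of subgroup 2, Col3a1 was at 9583 CPM, as in subgroup 1 (9072 CPM), against 526 CPM in Scx-high cells. Ly6a, at 201 CPM, and Cd34, at 250 CPM, were lower than in subgroup 1, at 873 and 676 CPM. Subgroup 3 had the highest Ly6a (1268 CPM) and Cd34 (877 CPM) and the lowest Col3a1, Dpt and Lum, at 4005, 256 and 952 CPM. The fibroblast markers were required of every cell by the rule, so their presence in each subgroup is no result. Tenocyte genes led subgroup 2, so a name from the peritenon was not used. The cells are called Pi16-low fibroblasts here for that reason.

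Subgroup 3 was led by genes that were low in most other populations. They were Tspan15 (a tetraspanin), Rab37 (a small GTPase of secretion), Gchfr (a regulator of tetrahydrobiopterin synthesis), Bglap2 (an osteocalcin gene), Rgcc (a regulator of cell cycle induced by complement), F13a1 (the A chain of coagulation factor XIII), Ambn (ameloblastin, an enamel matrix protein) and Has1 (a hyaluronan synthase). Rgcc (ENSMUSG00000022018, chromosome 14 from 79288756 to 79301645) was at 1868 CPM, against 19.99 CPM in subgroup 1, 22.1 CPM in subgroup 2 and 43.0 CPM in immune cells. It had a UMI in 60.2% of the cells of subgroup 3 and in 7.41% of immune cells. After each cell was thinned to 1500 UMIs, which left 119 of 123 and 148 of 189 cells, the shares were 54.6% and 2.70%. Has1, at 161 CPM, had 0 UMIs in immune cells.

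Tspan15 had 134 UMIs in subgroup 3 and 1 in the other members, a ratio of 242 (95% interval 42.7 to 9639). Ambn rested on few cells: 17 cells of subgroup 3 held 296 UMIs, and 1 cell held 117 of all 305, or 38.4%. Bglap2 has close paralogs whose reads may be shared with it, so its 69 UMIs in 14 cells are uncertain. F13a1 was also abundant in immune cells, at 952 CPM against 200 CPM in subgroup 3, while the immune markers of subgroup 3 summed to 20.5 CPM.

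Sheath and surface genes were higher in subgroup 3. Of the 6 tendon sheath and synovial lining genes compared, 4 were at least 2-fold higher than in the other members and 1 lower, and the list had a median of 2.10 (log2 ratio). Of all 1659 genes compared, 14.4% were at least 2-fold higher and 6.33% lower. Tppp3, a tubulin-binding protein found in tendon sheath cells, was at 3612 CPM (immune cells 909 CPM). Cd55, which protects cells from complement, was at 470 CPM, and Prg4 (lubricin) was at 135 CPM, below the 160 CPM of subgroup 2. Adventitial genes were at least 2-fold higher in 7 of 9, with 0 lower. All 5 stromal surface genes were at least 2-fold higher, with Cd44, the hyaluronan receptor, at 660 CPM. The sheath, adventitial and surface lists share genes, Cd55 among them, so their counts overlap.

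Matrix and growth genes ran the other way in subgroup 3. Of the 8 imprinted genes, 7 were at least 2-fold lower, beside 6.33% of all genes. So were 5 of 8 microfibril genes, 6 of 7 tenocyte genes and 3 of 3 secreted Wnt antagonists. Mfap4 was at 87.2 CPM, against 1211 CPM in subgroup 1 and 3053 CPM in subgroup 2. Sfrp2, a secreted Wnt antagonist, was at 3.42, 357 and 334 CPM in the same order. Crip1, a small LIM protein, was at 19042 CPM, against 3596 and 4074 CPM, and immune cells had 10439 CPM. Mural markers were highest here too, at 868 CPM against 126 and 297 CPM, with Acta2 at 381 CPM but the pericyte markers Abcc9, Kcnj8 and Higd1b at 0. Their part in the subgroup was not tested.

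**Figure D2:**
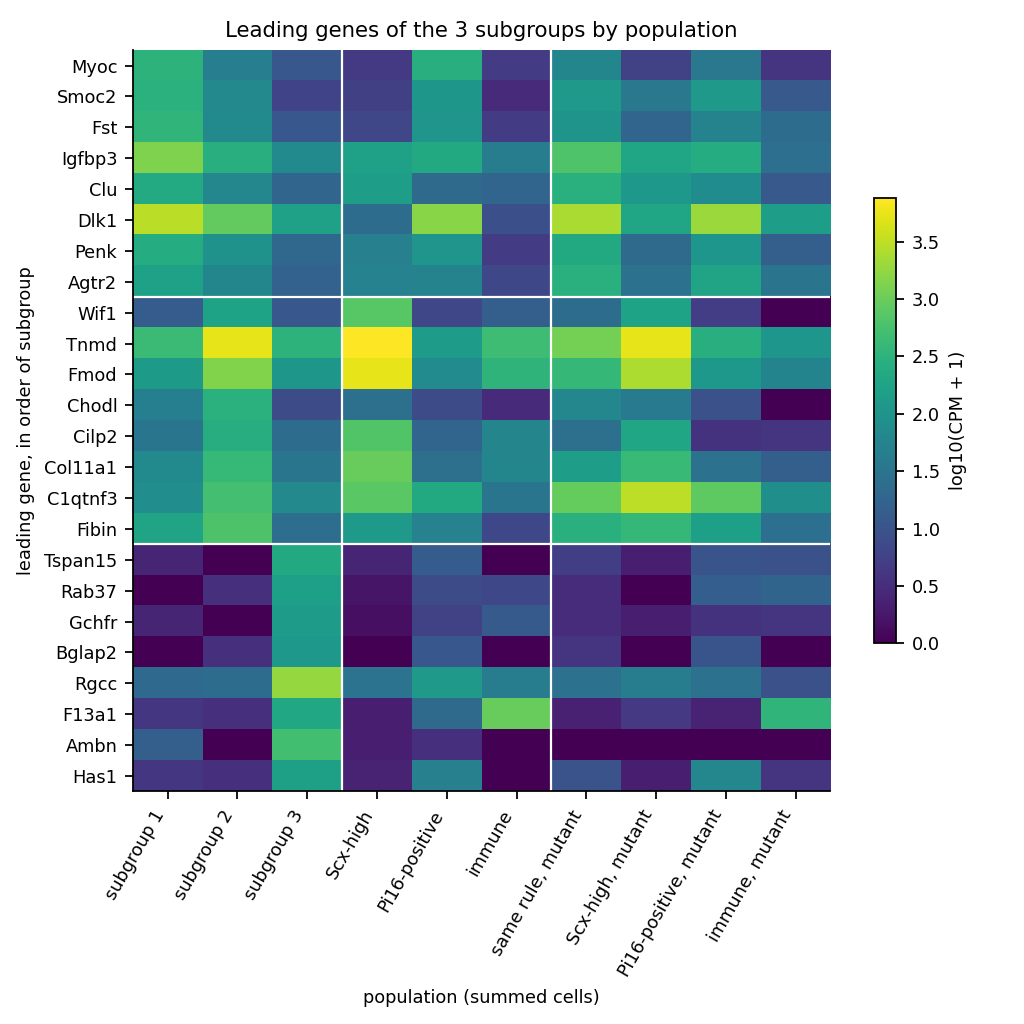
Colour gives the level, as log10(CPM + 1), of the 8 leading genes of each subgroup (rows, in order of subgroup) in 10 populations of summed cells (columns, the control library first). The genes of subgroup 3 are brightest in subgroup 3, apart from F13a1 in immune cells, and those of subgroup 2 are bright in Scx-high cells.

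The first comparison asked how Pi16-low fibroblasts differ from the tenocytes of the same tissue. Against the 1100 Scx-high cells (median 4233.5 UMIs), 233 of 1300 genes were at least 2-fold higher (17.9%) and 103 at least 2-fold lower (7.92%). The median gene was 0.31 higher on the log2 scale, and relative to that median 168 genes were higher and 159 lower. All 8 adventitial fibroblast genes and 6 of 8 imprinted genes compared were at least 2-fold higher, and all 14 tenocyte genes were at least 2-fold lower. The Scx limit entered the choice of cells, so these are descriptions.

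Among growth genes, Dlk1 was at 1450 CPM in Pi16-low fibroblasts and 22.9 CPM in Scx-high cells, 63.4-fold higher (52.1 to 78.0). H19 was at 1790 and 64.2 CPM, and Igf2, its neighbour and a growth factor, at 788 and 36.2 CPM. The median log2 ratio of the 8 imprinted genes compared was 1.87, against 0.31 for all genes. Of them, 6 were at least 2-fold higher and 0 lower, beside 17.9% and 7.92% of all genes. The 2 that were not were Mest, at 365 and 237 CPM, and Meg3, at 3718 and 3438 CPM. Among matrix genes, Mfap5 was at 1893 and 56.2 CPM, 33.7-fold higher (29.6 to 38.5). All 8 adventitial fibroblast genes compared were at least 2-fold higher, beside 17.9% of all genes. Serpine2, a protease inhibitor, was at 199 and 3.77 CPM, 52.8-fold higher (32.4 to 91.7). Pthlh, which codes for parathyroid hormone-related protein, was at 146 and 1.33 CPM, and Krtdap at 159 and 1.78 CPM, both mostly from subgroup 3.

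Fibrillar collagen genes lay on both sides. Col1a1 was at 12279 CPM in Pi16-low fibroblasts and 75019 CPM in Scx-high cells, 6.11-fold lower, and Col1a2 was 6.27-fold lower. Col11a2 was 40.1-fold lower (32.2 to 50.7) at 48.1 and 1929 CPM. The collagen V genes were higher, Col5a1 at 488 and 52.2 CPM, Col5a2 at 738 and 268 CPM and Col5a3 at 196 and 6.66 CPM, the last 29.4-fold (20.2 to 44.4). In all, 3 of 8 fibrillar collagen genes were at least 2-fold higher and 5 lower, beside 17.9% and 7.92% of all genes. Of 9 other collagen genes compared, 2 were at least 2-fold higher, a share near that of all genes, and 3 lower, with a median log2 ratio of -0.50. The 2 were the basement membrane chains Col4a1 and Col4a2, 6.22-fold and 2.84-fold higher. Collagen V limits fibril width. Col3a1, a gene of the rule and so outside these counts, was at 7394 and 526 CPM.

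Enzymes that modify or cross-link collagen were at least 2-fold lower in 7 of 13 and higher in 1, beside 7.92% and 17.9% of all genes. P4ha1, a prolyl hydroxylase, was 6.33-fold lower and Lox, a lysyl oxidase, 4.60-fold lower. Loxl1 was 5.34-fold higher, and P4ha2, with too few UMIs per cell to be among the genes compared, was at 121 and 9.77 CPM. All 14 tenocyte genes compared were at least 2-fold lower. Their median was -2.96 as a log2 ratio, and they ranged from Thbs4, 2.33-fold lower, to Car9, a carbonic anhydrase at 2.43 and 288 CPM. Ucma, a cartilage matrix gene, was at 1.22 and 141 CPM, and Col2a1 at 45.7 and 883 CPM. Immune cells had 3.91 CPM of Ucma, which rests on 2 UMIs there and 2 in Pi16-low fibroblasts, and 45.0 CPM of Col2a1.

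Transcription factors of mesenchyme were at least 2-fold higher in 5 of 7 compared, with 0 lower, beside 17.9% and 7.92% of all genes. Ebf1 was at 491 and 33.5 CPM, 14.6-fold higher (12.3 to 17.5), and Meox2 at 349 and 93.0 CPM. Osr2, with too few UMIs per cell to be among the genes compared, was at 140 and 1.78 CPM. Immediate early genes, which respond to tissue handling, were not 2-fold apart in any of 7 compared within this library.

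**Figure D3:**
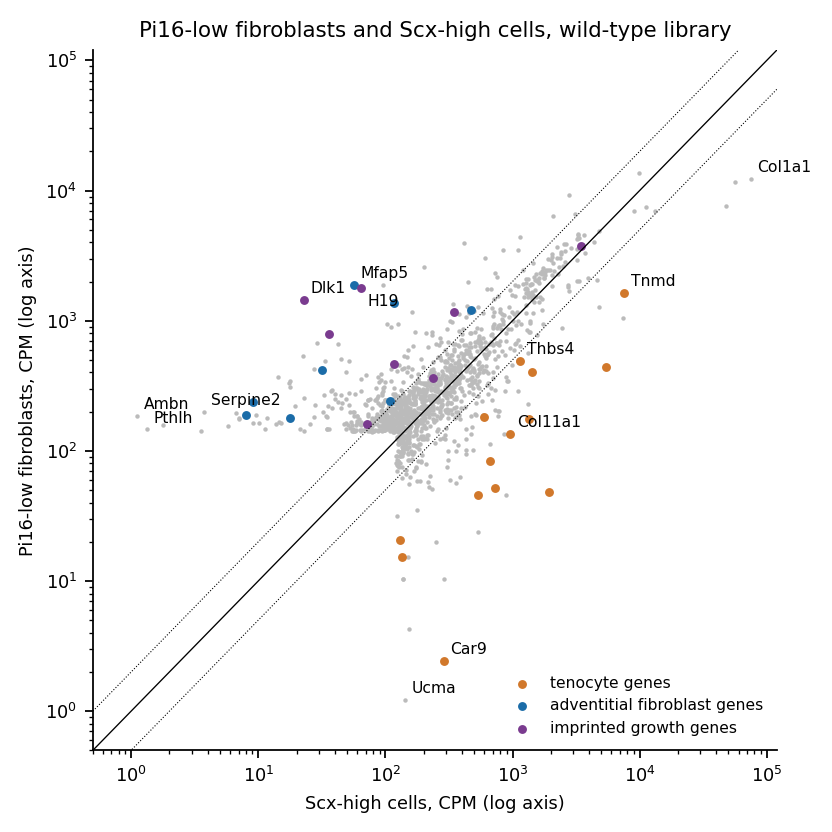
Each point is a gene, with its CPM in the 1100 Scx-high cells (horizontal) and in the 462 Pi16-low fibroblasts (vertical), both on log axes. The solid line marks equal levels and dotted lines 2-fold differences, and coloured points mark 3 gene lists: tenocyte genes lie below the lines, adventitial genes and most imprinted genes above.

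The second comparison set Pi16-low fibroblasts beside the 217 cells that failed only the Pi16 limit (median 3995 UMIs). Far fewer genes differed: 34 of 1291 were at least 2-fold higher (2.63%) and 41 lower (3.18%), with a median log2 ratio of 0.03. Adventitial genes were at least 2-fold lower in 7 of 10, and 0 were higher. Mfap5 was at 1893 CPM against 6767 CPM in Pi16-positive cells, 3.57-fold lower (3.42 to 3.74). Fbn1, the main microfibril protein, was at 598 and 2168 CPM, 3.63-fold lower (3.36 to 3.92), and Igfbp5 at 426 and 1910 CPM, 4.49-fold lower (4.11 to 4.91). Efemp1, at 27.4 and 233 CPM, and Scara5, a ferritin receptor at 18.3 and 147 CPM, were lower still, by 8.51-fold and 8.05-fold.

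Tenocyte genes and genes of subgroup 3 were among those higher in Pi16-low fibroblasts. Of 6 tenocyte genes compared, 5 were at least 2-fold higher, beside 2.63% of all genes, with Tnmd at 1638 and 140 CPM, 11.7-fold (9.75 to 14.1). Tnmd in Pi16-positive cells was under the immune level of 465 CPM, as it was in the members outside subgroup 2, at 380 CPM. Subgroup 2 held 2220 of the 2690 Tnmd UMIs of Pi16-low fibroblasts. Hbegf, an epidermal growth factor ligand, was at 274 and 14.9 CPM, 18.4-fold higher (10.6 to 34.7), and stood at 728 CPM in subgroup 3 and 18.4 CPM in subgroup 1. Rgcc was at 679 and 122 CPM. Imprinted genes were not 2-fold apart in any of 9 compared, but few of all genes were (2.63% higher and 3.18% lower). This count therefore does not set the list apart. Dlk1 was at 1450 and 1564 CPM. The pooled level hides the subgroups, since Dlk1 was at 2969 CPM in subgroup 1 and 166 CPM in subgroup 3.

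The third comparison applied the same rule to the mutant library, where 1562 of 2592 barcodes qualified (60.3%, 58.3 to 62.2), against 19.5% in the control. Scx-high cells made 46.5% of the control and 7.91% of the mutant barcodes. The study describes its main mutant cluster as dedifferentiated tendon cells. It lists Ly6a, Cd34, Dpt, Lum and Col3a1 among the genes upregulated there. These are the fibroblast markers of the rule, so the mutant cells that qualified may include former tenocytes. Whether the rule picks cells of the same kind in both libraries was not tested. Library preparation and genotype cannot be told apart. Tgfbr2, the targeted gene, was at 56.6 CPM in the control and 67.4 CPM in the mutant cells, and counts of 3′ ends need not show the loss of an upstream exon. Of 1188 genes, 84 were at least 2-fold higher in the control cells (7.07%) and 44 lower (3.70%), with a median log2 ratio of 0.08.

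All 10 genes furthest above in the control cells had their highest level in subgroup 3, Mustn1 for example at 410 CPM, as did 48.2% of all 1188 genes. The 10 include Ppia and Myl6, whose levels in immune cells are given below. Rgcc was at 679 CPM in the control and 27.6 CPM in the mutant cells, 24.6-fold higher (20.5 to 29.7). Mustn1 was at 180 and 14.9 CPM, Lgals7 at 166 and 14.0 CPM, Krtdap at 159 and 15.9 CPM and Pthlh at 146 and 15.1 CPM. Ambn had 305 UMIs in the control and 0 among 4703646 UMIs in the mutant cells, but with the few cells named above. Tppp3 was at 1886 and 234 CPM, 8.06-fold higher (7.53 to 8.65). It was also higher in the control in immune cells, at 909 and 360 CPM.

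Cells that carried the genes of subgroup 3 were counted in each library. At least 5 UMIs over the 8 leading genes of subgroup 3 were found in 57 of 462 control cells (12.3%, 9.48 to 15.7) and in 6 of 1562 mutant cells (0.384%, 0.141 to 0.834). As a share of all barcodes of a library these were 2.41% (1.83 to 3.11) and 0.231% (0.0850 to 0.503). The summed level of the 8 genes was 1227 CPM in the control and 49.3 CPM in the mutant cells, a ratio of 24.9 (21.7 to 28.6). Without F13a1 the counts were 55 and 6 cells and the ratio 24.0. Of the other control cells, 0 of 1100 Scx-high cells and 9 of 217 Pi16-positive cells passed, and of 189 immune cells 33 passed with F13a1 and 0 without it. The genes were picked in the control library, which favours that library, and the median depth was 3343.5 UMIs in the control and 2796 in the mutant cells.

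The genes of the other subgroups were present in both libraries. Those of subgroup 1 reached 5 UMIs in 45.9% of control and 61.3% of mutant cells of the rule, at 2848 and 4152 CPM. Those of subgroup 2 did so in 32.7% and 36.2%, at 2858 and 3001 CPM. In immune cells they did so in 6.35% of control and 1.62% of mutant cells, at 960 and 288 CPM. In summed CPM, the sets of subgroups 1 and 2 differed by less than 2-fold between the libraries, and that of subgroup 3 by more. Cells of the rule with at least 5 UMIs of the subgroup 1 set made 8.97% of control and 36.9% of mutant barcodes. For the subgroup 2 set these shares were 6.39% and 21.8%. As shares of all barcodes, both were thus higher in the mutant library, where that of subgroup 3 was lower.

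Genes of surface and sheath were also higher in the control cells. Of 5 stromal surface genes 4 were at least 2-fold higher, of 8 adventitial genes 5, and of 4 tendon sheath and synovial lining genes 3, with 0 lower in any of the 3 lists, where 7.07% of all genes were higher and 3.70% lower. The lists share genes, Cd55 among them, so these counts overlap. Cd55 was at 187 and 35.5 CPM, Has1 at 59.1 and 8.93 CPM and Clec3b (tetranectin) at 1369 and 630 CPM. Igfbp6 was at 1538 and 337 CPM, 4.57-fold higher. Of 8 imprinted genes compared, 0 were at least 2-fold higher and 1 lower, counts too small to set apart from the shares of all genes. Dlk1 was at 1450 and 2427 CPM.

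Chemokine genes and Eln were among the genes higher in the mutant cells. Of 3 chemokine genes compared, 3 were at least 2-fold lower in the control. Cxcl12 was at 291 and 921 CPM and Cxcl14 at 234 and 783 CPM. Both metallothioneins, 3 of 4 retinoid genes and 3 of 8 proteases and inhibitors were also at least 2-fold lower, against 3.70% of all genes. Immediate early genes were at least 2-fold lower in 2 of 8 and higher in 0. Their median log2 ratio was -0.73, against 0.08 for all genes. Whether tissue handling differed between the libraries was not tested. Eln (elastin) was at 864 CPM in the control and 4431 CPM in the mutant cells, 5.13-fold lower (4.86 to 5.41), with 362 of its 1420 control UMIs in 1 cell. It was the only gene of 8 compared in the microfibril and elastic fibre list that was at least 2-fold lower. Col8a1 was at 19.5 and 261 CPM, 13.4-fold lower (9.43 to 19.7), and Igfbp2 at 46.3 and 272 CPM. Apoe was at 99.2 and 533 CPM, and is a gene of the immune cells too (8583 and 16848 CPM), while the immune markers of the cells of the rule summed to 23.1 and 25.1 CPM. Their Schwann markers summed to 77.3 and 365 CPM, bone markers to 12.8 and 122 CPM and adipocyte markers to 138 and 388 CPM. Endothelial markers summed to 70.0 and 151 CPM and cartilage markers to 131 and 143 CPM. Mural (433 and 309 CPM), perineurial (30.4 and 20.8 CPM) and skeletal muscle markers (27.4 and 16.8 CPM) were higher in the control. The part of these cell types in the differences was not tested.

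Some of these differences were also found in other cells of the same libraries, and why was not tested. Of the 44 genes lower in the control cells, 26 were also at least 2-fold lower in control immune cells, 24 in Scx-high cells and 32 in Pi16-positive cells. Of all genes measured in the same cells, 8.24%, 11.4% and 4.21% were at least 2-fold lower. Eln was at 52.8 CPM in control and 1427 CPM in mutant immune cells. The 84 genes higher in the control were set beside the same cells. At least 2-fold higher were 18 of 75 measured in immune cells, 16 of 84 in Scx-high cells and 39 of 83 in Pi16-positive cells. Of all genes measured there, 3.57%, 3.37% and 3.88% were at least 2-fold higher. The median log2 ratios of the genes among the 84 measured there were 0.67, -0.20 and 0.96. Ppia, a prolyl isomerase of all cells, was at 256 and 26.8 CPM in the cells of the rule and at 415 and 30.5 CPM in immune cells, and Myl6 likewise at 351 and 55.3 CPM and at 497 and 128 CPM. Rgcc was at 43.0 and 8.31 CPM in immune cells and at 29.1 and 43.4 CPM in Scx-high cells, while Pthlh was at 0 in immune cells of both libraries.

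**Figure D4:**
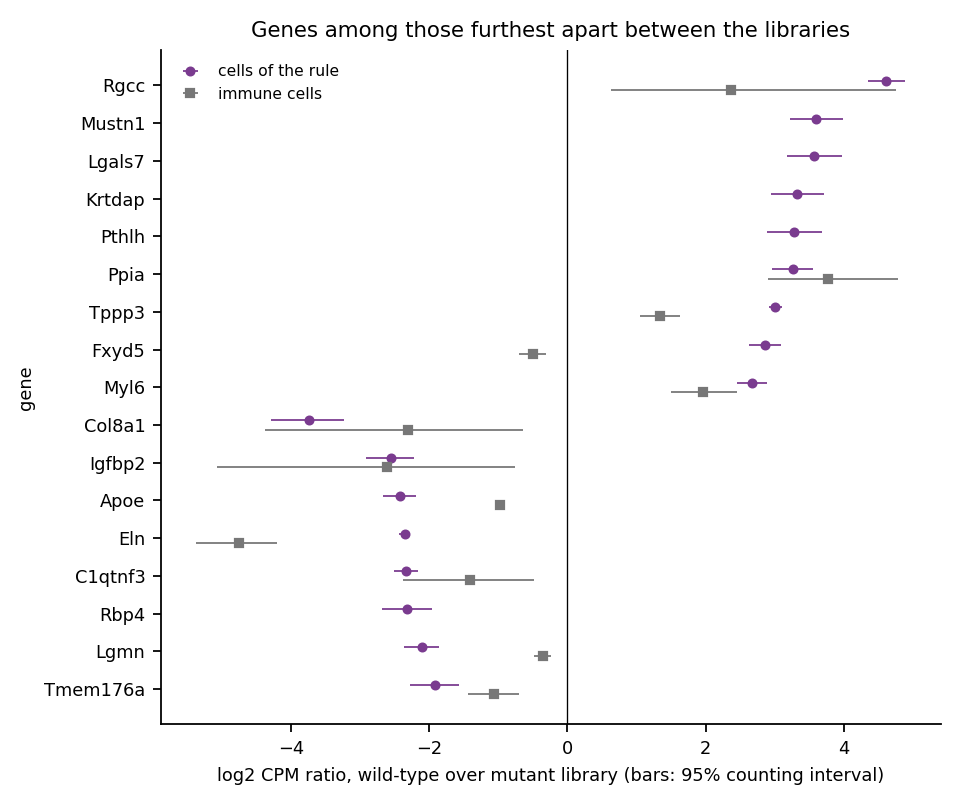
Log2 CPM ratios of the control over the mutant library (horizontal, bars are 95% counting intervals) for genes among those furthest apart between the control (wild-type) and mutant cells, in cells of the rule (circles) and in immune cells (squares, where both libraries had UMIs). Ambn, at 0 UMIs in the mutant cells, is left out. Ppia, Myl6, Col8a1, Igfbp2, Eln and C1qtnf3 lie on the same side of 0 in immune cells, while Fxyd5 does not.

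**Figure D5:**
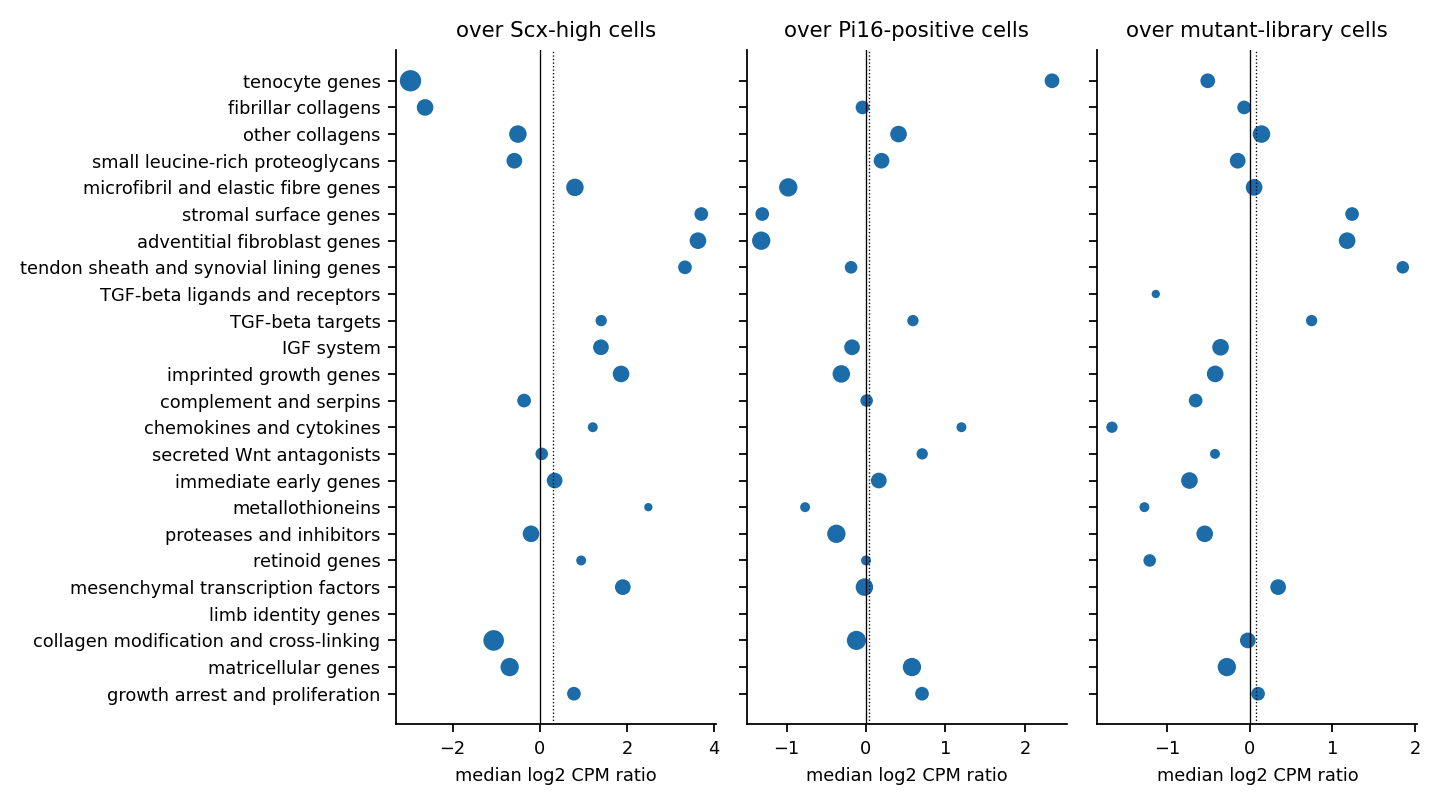
Median log2 CPM ratio of each gene list (lists of cell type markers are not plotted) for Pi16-low fibroblasts over Scx-high cells, over Pi16-positive cells and over cells of the same rule in the mutant library. Point area grows with the number of genes compared, the solid line is 0 and the dotted line the median of all genes (0.31, 0.03 and 0.08), and horizontal scales differ. Of the lists plotted, tenocyte genes lie lowest against Scx-high cells (-2.96) and highest against Pi16-positive cells (2.34).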

How the data were processed

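Single-cell RNA was counted in 1 control and 1 mutant library. The authors deposited UMI counts per gene and barcode, without normalization, over 27998 genes. The reads had been aligned to mm10 with Cell Ranger, whose version the submitters' processing notes give as 1.2.0 and the study's methods otherwise. The libraries held 9451606 and 8250248 UMIs in 2364 and 2592 barcodes, all used (948 to 14358 and 903 to 15968 UMIs per barcode).

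Members, gene lists and settings were chosen with earlier results of these data known. Summed counts were scaled to CPM, and ratios given with exact conditional 95% intervals and shares with exact binomial ones. A gene was compared when either population averaged 0.5 UMI per cell or more, without the 25 genes of the rule, and counted at 2-fold. The plot of list medians leaves out the lists of cell type markers. The limb identity list and the TGF-beta ligands and receptors had 0 against Scx-high cells. Named were the 10 genes of largest and of smallest ratio, outside mitochondrial and ribosomal genes, the 15 most abundant, the 8 leading genes of each subgroup and the listed genes, of which some are not reported here. Subgroups came from K-means on 10 principal components of log2 counts of the 1000 most variable genes (50 starts, seed 1). Scrublet, at an expected rate of 2%, marked 1.10% and 0.309% of the barcodes, which stayed in. The ratio was tested on simulated counts that held counting error only, as its interval assumes. Spread between cells or libraries was not covered. Gene positions are from GENCODE M21. Python 3.11.15, NumPy 2.4.6, SciPy 1.17.1, scikit-learn 1.9.0 and Scanpy 1.11.5 were used. Alternatives covered the limits of the rule, doublets, depth, scaling, the minimum level and k.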

Additional observations from a re-analysis of the deposited data

Results flagged for a closer look

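For 4 genes the ratio of cells of the rule over Scx-high cells had opposite directions in the control and the mutant library, and the difference was not tested, since there is 1 library of each genotype. On the log2 scale Pthlh was 6.78 in the control and -1.56 in the mutant library. Hbegf was 2.24 and -2.97, and Fxyd5, a regulator of the sodium pump, was 1.78 and -1.98. Tmem176a ran the other way, at -1.07 and 1.15. The levels behind them were 1.33 CPM for Pthlh in control and 44.6 CPM in mutant Scx-high cells, and 57.9 and 355 CPM for Hbegf. Scx-high cells numbered 1100 in the control and 205 in the mutant library.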

How the results depend on the processing

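No paired analysis was possible because each genotype has 1 library and no result comes from a test. The shares kept by the rule in the control and the mutant library were 17.6% and 56.7% with at least 10 marker UMIs, 16.6% and 57.7% with Scx under 10 per 10000, 16.2% and 47.8% with at least 2000 UMIs, and 16.2% and 55.2% with no Pi16 UMI, an alternative chosen after seeing the data. With a mean of at least 0.1 UMI, 1001 genes were at least 2-fold higher and 248 lower against Scx-high cells, 163 and 140 against Pi16-positive cells, and 260 and 148 against the mutant cells. Genes lower against Scx-high cells numbered 167 (166 higher) without the 20 most abundant genes in the total and 159 (168 higher) after centring on the median gene. With k = 4 the largest overlap of subgroup 2 with a group fell to 76 of 128 cells, since another 50 of its cells formed most of a further group, while subgroup 3 kept 123 cells together at k = 2 and 102 at k = 4. With Scx under 10, Tnmd over Pi16-positive cells was 2.95 on the log2 scale, in place of 3.55. No result changed direction among those with a 2-fold difference. Genes under 0.5 UMI per cell, among them all 8 TGF-beta ligands and receptors against Scx-high cells, were under the minimum set for comparison.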
